A study of Homo sapiens with 9 samples.

Results

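The kidney and liver lineage transcription factors described here were HNF4A, HNF4G, FOXA1, FOXA2, FOXA3, PAX2, PAX8 and LHX1. They were taken as the rows of the gene count table that carry these names, which gave 8 of 38021 genes, and the rule that picks these rows uses names and no measured value, although the names were chosen with earlier results of these data known. RNA sequencing was performed on 786-O, an established human cell line from a clear cell renal cell carcinoma (ccRCC) that has no working VHL, the protein that marks HIF2α for degradation. The study asked how far the transcripts that depend on HIF2α also depend on its usual partner ARNT and on BMAL1, a related protein of the circadian clock. All cells carried a pLKO.1 lentiviral short hairpin RNA and were selected and kept in puromycin, and the labels give the genotype of the line as WT. The hairpin was a control in shControl, targeted ARNT in shARNT and targeted BMAL1 in shBMAL1, with 3 libraries in each group that the labels call biological replicates. Each target was represented by 1 hairpin group in 1 cell line, so an effect of the hairpin itself and an effect of losing its target cannot be told apart.

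PAX2 and PAX8 are paired box factors that specify the nephric lineage and are often kept in renal carcinoma, and LHX1 is a LIM homeodomain factor needed for the nephric duct and for tubule patterning. HNF4A and HNF4G are nuclear receptors of hepatocytes, proximal tubule and gut, and HNF4A drives much of the hepatocyte and proximal tubule program. FOXA1, FOXA2 and FOXA3 are forkhead pioneer factors that open chromatin at liver and other endodermal enhancers.

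Libraries held 33793045 to 35444735 reads, so depth hardly differed between groups. Mitochondrial genes took 5.46% to 7.14% of the reads in shControl, 7.59% to 8.74% in shARNT and 8.71% to 9.66% in shBMAL1, and the part of this shift in the results was not tested. ARNT fell by 0.94 on the log2 scale under shARNT (SE 0.07, DESeq2 adjusted p = 8.83e-35), and the BMAL1 gene, listed as ARNTL, fell by 1.23 under shBMAL1 (SE 0.11, DESeq2 adjusted p = 2.51e-25). Smaller decreases were called for ARNT under shBMAL1 (log2 fold change −0.23) and for ARNTL under shARNT (−0.26). All 10 markers fixed for the renal carcinoma line were detected, including VIM, EPAS1, CA9 and KRT8. Of 10 markers of other cells, 4 had no read in any library, CD3E, CDH5 and NPHS1 among them. CD68, which is widely expressed in cultured lines, made up most of the summed level of that list, and without it the sum ran from 317.9 to 349.8 normalized counts in shControl, 292.6 to 335.2 in shARNT and 401.5 to 428.9 in shBMAL1. Most of that remaining sum was EPCAM, at 308.9 to 330.6 in shControl, 265.1 to 319.6 in shARNT and 348.7 to 381.3 in shBMAL1. EPCAM was not called in either knockdown against shControl. Between the knockdowns it was higher in shBMAL1 (log2 fold change 0.30, DESeq2 adjusted p = 0.0717).

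Of these 8 genes 6 have an adjusted p, since independent filtering on low counts removed HNF4A and FOXA3. Under shBMAL1, 5 of the 6 passed the test (DESeq2, adjusted p under 0.1 over all genes tested): PAX2, FOXA2 and FOXA1 were higher, and PAX8 and LHX1 were lower. Under shARNT only FOXA1 (higher) and LHX1 (lower) passed it among the 6. The background was high, since 36.8% of 19036 genes tested were called under shBMAL1 (17.4% higher and 19.4% lower) and 35.4% of 15164 under shARNT (16.5% higher and 19.0% lower). In the direct comparison of shBMAL1 with shARNT, FOXA2 and PAX2 were higher and PAX8 was lower, which is 3 of 6 against 35.3% of 18181 genes (17.3% higher and 18.0% lower). The count of 2 of 6 under shARNT lay near its background. The median log2 fold change of the 6 was −0.06 under shARNT and 0.18 under shBMAL1, beside 0.0028 and 0.0153 over all genes tested. Because the 3 control libraries serve both knockdown comparisons, their values are given side by side and were not correlated.

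**Figure D1:**
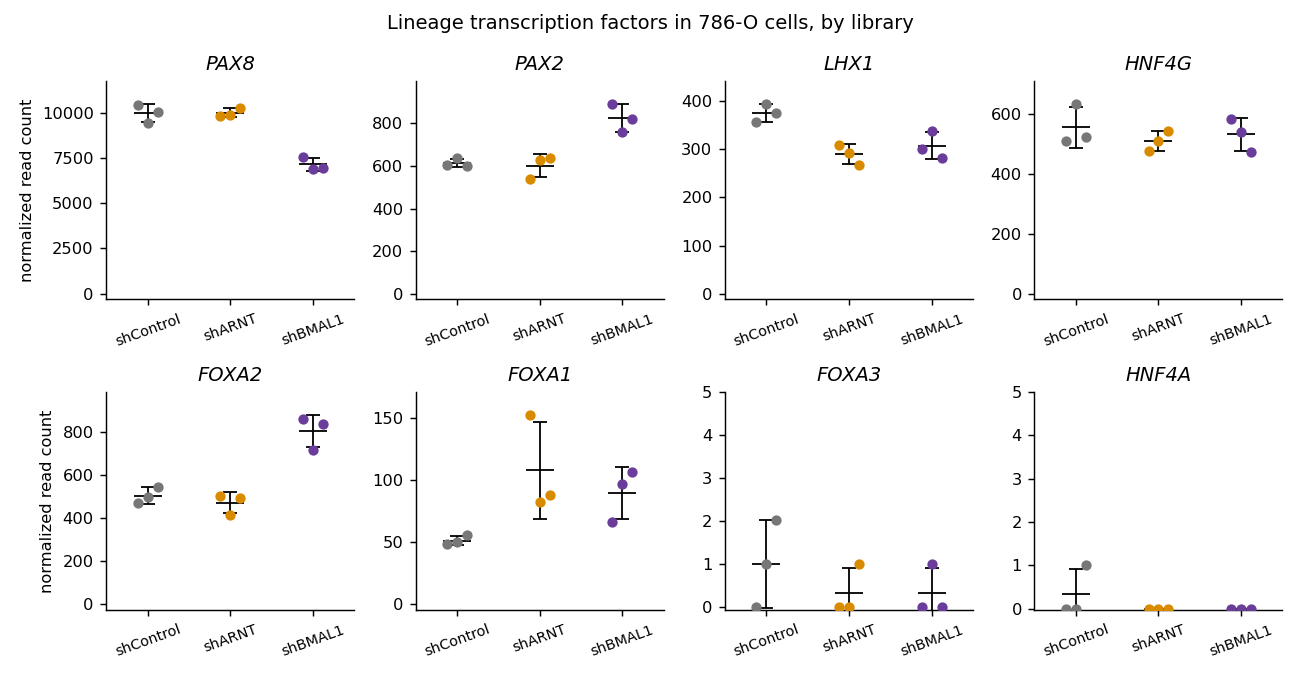
Normalized read counts (vertical axes, linear, a separate range for each gene) of the 8 lineage factors in the 3 libraries of shControl, shARNT and shBMAL1; points are libraries, the long bar is the mean and the short bars are 1 SD. PAX8 lay lower and PAX2 and FOXA2 lay higher in all 3 shBMAL1 libraries than in any other library, and HNF4A and FOXA3 never exceeded 3 reads in a library.

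The factors differed widely in level. Per kilobase of the canonical GENCODE transcript, PAX8 had 2467 ± 127 normalized counts in shControl (SD, n = 3), against 199.1 ± 15.5 for FOXA2, 146.4 ± 4.64 for PAX2, 132.7 ± 16.3 for HNF4G, 109.7 ± 5.50 for LHX1 and 14.6 ± 1.09 for FOXA1. PAX2 and HNF4G, neighbors in this order, overlapped between libraries, and the other neighbors did not. PAX8 thus led the list by a wide margin on this scale. In shBMAL1 the order of the 8 was kept, with PAX8 at 1765 ± 95.5, FOXA2 at 317.7 ± 30.0 and PAX2 at 196.9 ± 15.6 normalized counts per kilobase (SD, n = 3).

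The paired box genes moved in opposite directions under shBMAL1, and neither passed the test under shARNT. PAX8 (chromosome 2, 113973574 to 114036498, minus strand, GRCh37, protein-coding) had 10477, 9453 and 10082 normalized counts in shControl, 9870, 9918 and 10305 in shARNT, and 7599, 6884 and 6985 in shBMAL1. The shBMAL1 libraries lay below all others, while shARNT and shControl overlapped. Against shControl, PAX8 was lower in shBMAL1 with a log2 fold change of −0.49 (SE 0.07, 0.714-fold, DESeq2 adjusted p = 1.71e-11) and against shARNT the value was −0.49 (SE 0.06, DESeq2 adjusted p = 3.61e-13). Under shARNT its log2 fold change was 0.01, with a 95% interval of −0.10 to 0.11.

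PAX2 (chromosome 10, 102495153 to 102589701, plus strand) had 602.7, 635.8 and 601.5 normalized counts in shControl, 539.8, 630.5 and 636.1 in shARNT, and 892.6, 761.9 and 820.6 in shBMAL1. Here the shBMAL1 libraries were the highest, and the other groups overlapped. The log2 fold change was 0.43 under shBMAL1 against shControl (SE 0.10, 1.34-fold, DESeq2 adjusted p = 0.000193) and 0.45 against shARNT (SE 0.11, DESeq2 adjusted p = 0.00018). Under shARNT it was −0.02, with a 95% interval of −0.22 to 0.18. None of these PAX2 or PAX8 changes reached 1.5-fold.

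The balance between the paralogs, taken within each library and so free of scaling between libraries, shifted with these changes. Per 100 reads of PAX8 there were 5.75, 6.73 and 5.97 reads of PAX2 in shControl, 5.47, 6.36 and 6.17 in shARNT, and 11.7, 11.1 and 11.7 in shBMAL1. The shBMAL1 ratios lay above the others with a clear gap. PAX8 remained the more abundant transcript in every library. In bulk RNA, fewer cells that express a gene and less RNA of it per cell cannot be told apart.

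**Figure D2:**
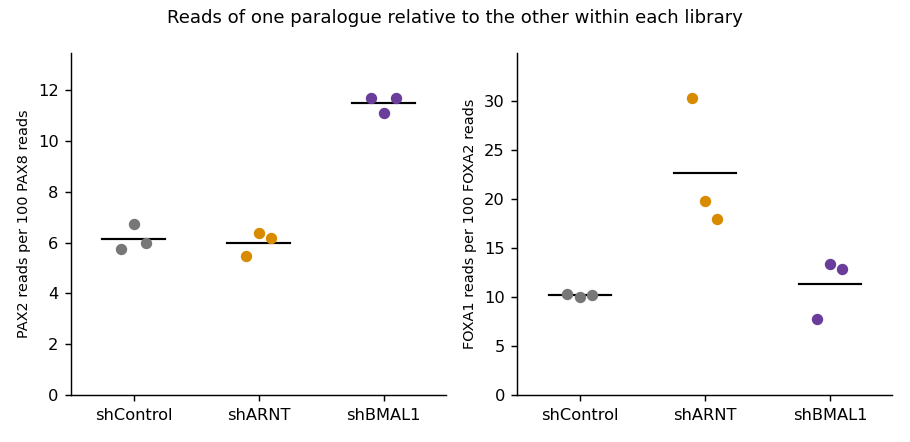
Reads of PAX2 per 100 reads of PAX8 (left) and of FOXA1 per 100 reads of FOXA2 (right) in each library of shControl, shARNT and shBMAL1; points are libraries and bars are means, on linear axes from 0. PAX2 per 100 PAX8 reads was 11.1 to 11.7 in shBMAL1 and at most 6.73 elsewhere, and FOXA1 per 100 FOXA2 reads was highest in shARNT, at 17.9 to 30.3.

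The sequences just upstream of the PAX8 and PAX2 starts are shown because the genes moved apart, and capitals mark the hypoxia response element core (ACGTG or GCGTG, searched on both strands) that HIF dimers bind. The 250 bases come from RefSeq (GRCh38.p14) and each matched GRCh37 at a single place, for PAX8 at chr2:114036499-114036748 on the minus strand and for the upstream start of PAX2 at chr10:102494903-102495152 on the plus strand.
PAX8: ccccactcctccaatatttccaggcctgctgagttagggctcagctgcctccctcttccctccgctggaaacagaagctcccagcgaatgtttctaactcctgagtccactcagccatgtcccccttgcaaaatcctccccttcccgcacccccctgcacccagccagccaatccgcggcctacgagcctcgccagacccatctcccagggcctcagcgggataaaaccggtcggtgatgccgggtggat
PAX2: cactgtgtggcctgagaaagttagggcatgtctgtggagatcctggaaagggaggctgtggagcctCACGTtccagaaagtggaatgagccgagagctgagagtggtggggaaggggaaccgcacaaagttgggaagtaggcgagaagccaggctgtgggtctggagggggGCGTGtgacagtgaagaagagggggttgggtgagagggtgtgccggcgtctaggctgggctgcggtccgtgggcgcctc
PAX8 had no match to the core in this window and PAX2 had 2, which begin at bases 67 and 172 from the 5′ end. A second PAX2 start, with its window at chr10:102505089-102505338, had none. The core is short and stood in 43.2% of 35116 RefSeq promoter windows of this length. None of the windows held the E-box (CACGTG, both strands, which contains the core), the letters preferred by BMAL1 with CLOCK, and 6.34% of all windows did. A match is a description of letters and not a site of binding.

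PAX8-AS1 (chromosome 2, 113968998 to 114034158, plus strand), a long noncoding RNA, overlaps PAX8 on the opposite strand. Its normalized counts were 121.8, 130 and 138.5 in shControl, 98.4, 73.7 and 107.3 in shARNT, and 108.2, 91.7 and 94.98 in shBMAL1. Both knockdown groups lay below the control libraries. On the log2 scale it was at −0.48 under shARNT (SE 0.22, DESeq2 adjusted p = 0.0817) and −0.41 under shBMAL1 (SE 0.21, adjusted p = 0.13, not called). The library kit was stranded, but whether the counting used strand was not stated, so reads of this pair cannot be told apart with certainty. The antisense gene held few reads beside PAX8.

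LHX1 (chromosome 17, 35294084 to 35301912, plus strand) was the only one of the 8 that was called lower in both knockdowns. It had 357.2, 394.9 and 376.1 normalized counts in shControl, 309.9, 292.6 and 268.4 in shARNT, and 301.8, 338.6 and 283.0 in shBMAL1. Every knockdown library lay below every control library, and the knockdown groups overlapped each other. The log2 fold change was −0.37 under shARNT (SE 0.13, 0.774-fold, DESeq2 adjusted p = 0.0151) and −0.29 under shBMAL1 (SE 0.13, 0.817-fold, DESeq2 adjusted p = 0.0781). Between the knockdowns it was 0.08, with a 95% interval of −0.19 to 0.36. These calls were the least secure of the set. Under shARNT the call was lost without shARNT replicate 3 (−0.32, adjusted p = 0.113). Under shBMAL1 it was lost without independent filtering (adjusted p = 0.101) and without any 1 of the libraries other than shBMAL1 replicate 2 (adjusted p = 0.109 to 0.269).

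FOXA2 was the forkhead member with the clearest change, and only under shBMAL1 did it pass the test. FOXA2 (chromosome 20, 22561636 to 22566093, minus strand) had 468.9, 499.8 and 546.9 normalized counts in shControl, 505.7, 417.4 and 494.0 in shARNT, and 862.8, 719.6 and 836.3 in shBMAL1. The shBMAL1 libraries again lay above all others, and the other groups overlapped. Its log2 fold change was 0.67 against shControl (SE 0.11, 1.59-fold, DESeq2 adjusted p = 2.12e-08) and 0.77 against shARNT (SE 0.11, 1.71-fold, DESeq2 adjusted p = 4.05e-10). Under shARNT the value was −0.09, with a 95% interval of −0.32 to 0.13. LINC00261, a long noncoding RNA that begins just downstream of FOXA2 on the same strand (chromosome 20, 22528301 to 22559280), was not called in any comparison. Its log2 fold change was 0.29 under shBMAL1 (SE 0.18, DESeq2 adjusted p = 0.235) and 0.34 against shARNT (SE 0.18, DESeq2 adjusted p = 0.134).

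FOXA1 (chromosome 14, 38058757 to 38065264, minus strand) had about 10 reads for each 100 of FOXA2 in the control cells and was higher in both knockdowns. Its normalized counts were 48.3, 49.98 and 55.6 in shControl, 153.0, 82.5 and 88.5 in shARNT, and 66.5, 96.7 and 106.7 in shBMAL1. All knockdown libraries lay above all control libraries, and the highest value was that of shARNT replicate 1. FOXA1 rose with a log2 fold change of 1.08 under shARNT (SE 0.29, 2.11-fold, DESeq2 adjusted p = 0.00106) and 0.81 under shBMAL1 (SE 0.28, 1.75-fold, DESeq2 adjusted p = 0.0144). Between the knockdowns it was −0.26, with a 95% interval of −0.80 to 0.27. Without shARNT replicate 1 the shARNT value was 0.74 (adjusted p = 0.0735), and without shBMAL1 replicate 3 the shBMAL1 call was lost (0.67, adjusted p = 0.131). Relative to FOXA2, FOXA1 was at 10.3, 10.0 and 10.2 reads per 100 in shControl, 30.3, 19.8 and 17.9 in shARNT, and 7.71, 13.4 and 12.8 in shBMAL1. The ratio was thus above the control range in all 3 shARNT libraries and on both sides of it in shBMAL1, where FOXA2 was higher too.

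FOXA3 (chromosome 19, 46367247 to 46377055, plus strand) and HNF4A (chromosome 20, 42984339 to 43061485, plus strand) were at the limit of detection. FOXA3 had 5 reads in 4 of the 9 libraries, with 3 reads in shControl and 1 read in each knockdown group. HNF4A, the central hepatocyte and proximal tubule factor of the set, had a single read in all 9 libraries, in shControl replicate 3. The limit that a count of 0 allows is 3 reads per library, or 0.0888 RPM in the shallowest library, and it covers counting error only. HNF4A-AS1, the antisense transcript of HNF4A, had 0 reads in every library. Neither gene has an adjusted p in any comparison, and a difference between groups was not detectable at this depth.

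HNF4G, the other HNF4 receptor, was well expressed and did not pass the test in any comparison. HNF4G (chromosome 8, 76320149 to 76479069, plus strand) had 512.2, 635.8 and 523.7 normalized counts in shControl, 477.5, 509.7 and 544.7 in shARNT, and 583.8, 542.2 and 474.9 in shBMAL1. All groups overlapped. The log2 fold change was −0.12 under shARNT (95% interval −0.35 to 0.10, DESeq2 adjusted p = 0.468) and −0.06 under shBMAL1 (95% interval −0.31 to 0.18, DESeq2 adjusted p = 0.761). Between the knockdowns it was 0.06, with a 95% interval of −0.17 to 0.29. A change of 1.5-fold, which is 0.58 on this scale, lay outside all of these intervals.

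**Figure D3:**
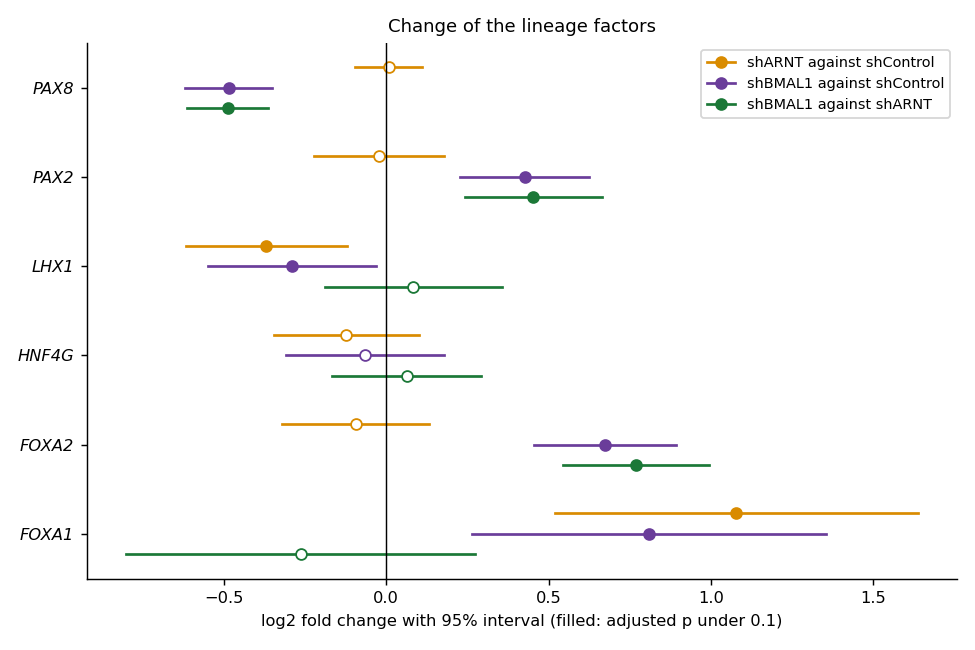
Log2 fold changes (horizontal axis) with 95% intervals of the 6 tested lineage factors, with 1 color for each of the 3 comparisons; filled points have a DESeq2 adjusted p under 0.1. The shBMAL1 values lay on both sides of 0, from −0.49 for PAX8 to 0.81 for FOXA1, and LHX1 and FOXA1 were called in both knockdowns.

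Other transcription factors of kidney development and tubule were mixed in direction. Of 32 such factors, 18 were tested under shARNT, where 3 were called higher and 2 lower, with a median log2 fold change of 0.11. Under shBMAL1, 21 were tested, with 6 called higher, 3 lower and a median of 0.09. The share called higher was 16.7% under shARNT, beside 16.5% of all genes, and 28.6% under shBMAL1, beside 17.4%. The raised factors under shBMAL1 included ESRRG, an orphan nuclear receptor linked to oxidative metabolism, at 1.16 (DESeq2 adjusted p = 0.00126), and TFAP2A, an AP-2 factor, at 0.82 (DESeq2 adjusted p = 2.09e-08). SALL1, a zinc finger factor of nephron progenitors, was higher in both knockdowns, at 0.19 under shARNT and 0.34 under shBMAL1. WT1, needed for nephron progenitors and podocytes, was at 0.42 under shARNT (DESeq2 adjusted p = 6.19e-05) and 0.04 under shBMAL1 (adjusted p = 0.849), and the direct comparison was called at −0.37 (DESeq2 adjusted p = 0.00241). The forkhead genes FOXC2 and FOXD1, of the mesenchyme and stroma of the developing kidney, were lower in both knockdowns, and FOXC1 was lower under shBMAL1 only, at −0.81 (DESeq2 adjusted p = 0.0413). Under shARNT the calls of FOXC2 and FOXD1 (−0.49 and −0.45, DESeq2 adjusted p = 0.0755 and 0.0723) were lost with independent filtering off and without shControl replicate 3, shARNT replicate 2 or shARNT replicate 3. Without shControl replicate 3 the kidney and liver factors called lower, counted together, went from 3 to 1 under shARNT and from 6 to 3 under shBMAL1. The shARNT count also went to 1 with a replicate block and at an adjusted p under 0.05. It went to 2 without shControl replicate 1, shControl replicate 2 or shARNT replicate 1. For FOXC1 the direct comparison was called as well, at −0.98 (DESeq2 adjusted p = 0.00905).

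Factors of the liver network included large increases in both knockdowns. The list of 22, which shares 2 genes with the kidney list, had 13 tested under shARNT, of which 8 were called higher and 1 lower, with a median log2 fold change of 0.33. Under shBMAL1, 16 were tested, 6 were called higher and 3 lower, and the median was 0.35. Over all genes, 16.5% and 17.4% were called higher, and the sets tested differ between the knockdowns.

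Among called genes of that list with a mean of at least 20 normalized counts, PPARGC1A and NR1H4 were the most raised in both knockdowns. PPARGC1A, the coactivator PGC-1α of mitochondrial biogenesis and gluconeogenesis, had 50.3, 61.0 and 36.4 normalized counts in shControl, 155.9, 179.7 and 93.4 in shARNT, and 384.2, 432.3 and 427.9 in shBMAL1. Its log2 fold change was 1.54 under shARNT and 3.07 under shBMAL1 (SE 0.19, DESeq2 adjusted p = 1.17e-55). NR1H4, the bile acid receptor FXR, had 118.7, 116.0 and 113.2 normalized counts in shControl, 342.0, 341.7 and 293.2 in shARNT, and 629.5, 733.7 and 690.4 in shBMAL1. For both genes the 3 groups did not overlap and rose from shControl through shARNT to shBMAL1. The values of NR1H4 were 1.49 and 2.56 on the log2 scale, and the direct difference was called for PPARGC1A (1.53) and for NR1H4 (1.07). CEBPD, a CCAAT-binding factor, was higher in both knockdowns too (0.54 and 1.00), whereas CEBPB and RXRA were higher under shARNT (0.49 and 0.23) and lower under shBMAL1 (−0.46 and −0.24), and the direct comparison was called for both. TBX3, a T-box repressor needed in early liver development, was lower by similar amounts in both, at −0.81 and −0.80.

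Genes that mark the differentiated tubule were counted next, from a list of 54 of which 9 had no read. Under shARNT 24 were tested, with 9 called higher and 3 lower and a median log2 fold change of 0.19. Under shBMAL1 32 were tested, with 18 called higher and 4 lower and a median of 0.64. Over all genes, 16.5% and 17.4% were called higher. Independent filtering admitted ACSM2A and ACSM2B under shBMAL1, where they are high, and not under shARNT, so the sets tested differ and the shBMAL1 count and median rest partly on genes that had to differ. CDH6, a cadherin of the proximal tubule lineage, had 13453 to 14457 normalized counts in shControl, 26226 to 28923 in shARNT and 44320 to 47941 in shBMAL1. SLC17A1, a sodium phosphate transporter, and UGT2B7, a glucuronosyltransferase, were at 2.59 (DESeq2 adjusted p = 1.66e-23) and 2.56 (DESeq2 adjusted p = 4.33e-19) under shBMAL1. Neither passed the test under shARNT, with values of 0.43 and 0.04, and the direct comparison was called for both.

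Some tubule genes went the other way. MIOX, which opens the inositol ring, was lower in both knockdowns (−0.65 and −0.58), and MME, the brush border peptidase neprilysin, was lower under shARNT (−1.16, DESeq2 adjusted p = 4.23e-38) and was at −0.17 under shBMAL1 (adjusted p = 0.131). AGXT2, a mitochondrial aminotransferase, was higher under shARNT (0.80, DESeq2 adjusted p = 0.0294) and lower under shBMAL1 (−1.63, DESeq2 adjusted p = 0.00063). The direct comparison was called for MME and AGXT2 and was not called for MIOX. ACSM2A, an acyl-CoA synthetase, had 0, 3.00 and 0 normalized counts in shControl and 71.5, 73.6 and 84.2 in shBMAL1, but its near-identical neighbor ACSM2B could share reads with it.

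Liver secretory and metabolic genes were counted in the same way. Of 62, 15 had no read; 26 were tested under shBMAL1, and 16 were called higher and 1 lower, with a median log2 fold change of 0.96. Under shARNT 19 were tested, 7 were called higher and 3 lower, and the median was 0.28. All genes were called higher in 17.4% and 16.5% of tests, respectively. FGB, FGG and SERPINA10 passed the filter under shBMAL1 and not under shARNT, and were close to 0 in the controls, so the same limit holds for this count and median. SLC2A2, the GLUT2 transporter of hepatocytes and proximal tubule and a member of both lists, had 12.1, 8.997 and 2.02 normalized counts in shControl, 54.6, 68.7 and 78.5 in shARNT, and 510.3, 585.5 and 543.5 in shBMAL1. The groups were far apart, with log2 fold changes of 3.13 and 6.15 (SE 0.33 under shBMAL1, DESeq2 adjusted p = 2.1e-74). ITIH2, a heavy chain that binds hyaluronan, was at 1.64 and 5.39, and LBP, the plasma protein that binds lipopolysaccharide, at 2.48 and 5.25, both from controls of at most 13 normalized counts. SERPINF2, the plasmin inhibitor, was at −0.23 under shARNT (adjusted p = 0.686) and 3.85 under shBMAL1 (DESeq2 adjusted p = 1.17e-98), and the direct comparison was called.

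Within the liver list SERPINA1 and CPS1, the first enzyme of the urea cycle, were called in opposite directions in the knockdowns. CPS1 was at −0.34 under shARNT (DESeq2 adjusted p = 1.21e-05) and 0.29 under shBMAL1 (DESeq2 adjusted p = 0.000725). SERPINA1, the secreted elastase inhibitor α1-antitrypsin, had 5538, 5453 and 5689 normalized counts in shControl, 2492, 2594 and 2381 in shARNT, and 11012, 10116 and 12448 in shBMAL1. Its log2 fold change was −1.16 under shARNT (DESeq2 adjusted p = 9.07e-90) and 1.01 under shBMAL1 (DESeq2 adjusted p = 6.69e-37), and the direct difference was 2.17 (DESeq2 adjusted p = 1.36e-157). ALB had at most 6.05 normalized counts in any library, so the defining hepatocyte product was near 0. Among the markers of other cells, CDH1, the epithelial cadherin, was higher under shBMAL1 (mean 9.73 ± 5.56 to 48.7 ± 6.87 normalized counts, log2 fold change 2.32, DESeq2 adjusted p = 7.89e-06), CD68 was lower (−0.31), and PTPRC and PECAM1 stayed under 10 normalized counts in every library. Their part in the results was not tested.

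**Figure D4:**
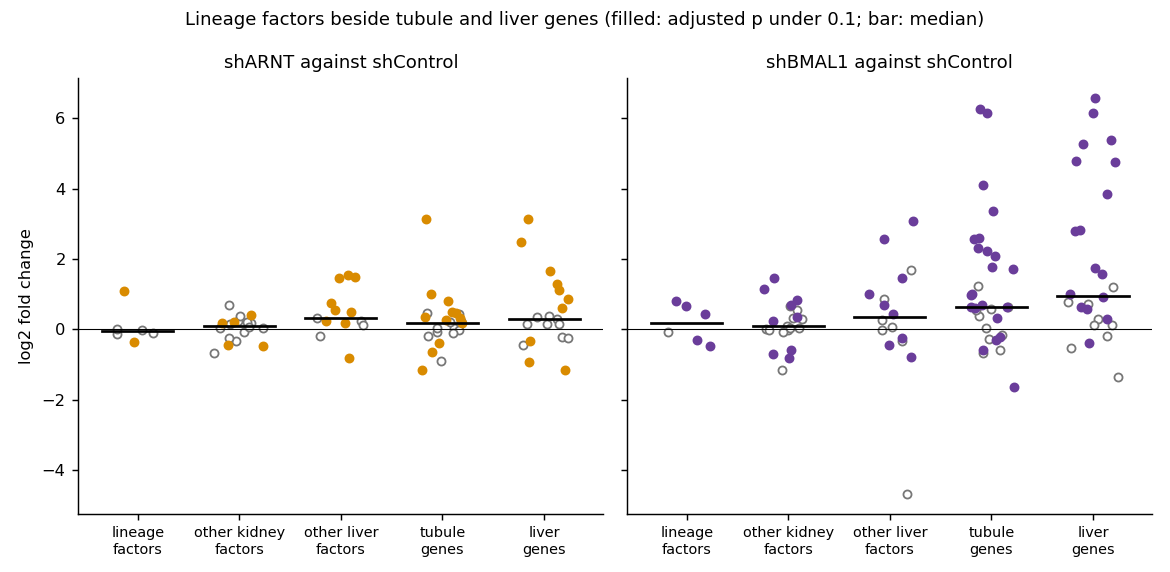
Log2 fold change (vertical axis) of each tested gene among the 8 lineage factors, the other kidney factors, the other liver factors, the tubule genes and the liver genes, for shARNT (left) and shBMAL1 (right) against shControl; points are genes, filled where the DESeq2 adjusted p is under 0.1, and bars are medians. Medians of the tubule and liver genes were 0.64 and 0.96 under shBMAL1 and 0.19 and 0.28 under shARNT, while that of the 6 tested lineage factors was 0.18 under shBMAL1.

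Upstream windows were given for 20 of the 33 tubule and liver genes called higher under shBMAL1. The hypoxia response element core stood in 6 of these (30%) and in 21 of 62 other genes of the lists (33.9%), beside 47.4% of all 27305 genes with a window. The forkhead core (TGTTTAC or TGTTTGC, both strands) stood in 3 of the 20 (15%) and 12 of the 62 (19.4%), beside 7.41%. A core bound by HNF4 receptors (CAAAGTCCA, both strands) stood in 1 of the 20 (5%) and 2 of the 62 (3.23%), beside 0.403%. The E-box stood in 3 of the 20 (15%) and 4 of the 62 (6.45%), beside 7.73%. Differences between these shares were not tested.

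Genes whose pair of knockdown fold changes was nearest to that of a called factor were drawn from 12918 genes with a mean of at least 50 normalized counts. Nearest to PAX8 were RAD21-AS1, NAA10, an N-terminal acetyltransferase, and TUBG1, a γ-tubulin, all within 0.01 of it on the log2 scale. RNASEH2C, a subunit of ribonuclease H2, POLI, a DNA polymerase, and LOC101928415 were nearest to PAX2. For LHX1 they were LOC105370531, the chromatin protein HMGA2 and DTD1, and for FOXA2 they were CEACAM19, LOC101927752 and PYROXD2. FOXA1 had PRKAR2B, a regulatory subunit of protein kinase A, at 1.06 and 0.84, LOC105377845, and MAP2K6, a kinase of the p38 pathway, at 1.16 and 0.77. The likeness is a description of 2 fold changes over 9 libraries that share their controls.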

How the data were processed

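Polyadenylated RNA was sequenced in paired ends from 9 libraries of 786-O cells, 3 for each of shControl, shARNT and shBMAL1, and samples were grouped by their titles. The deposited values were estimated counts per gene that the authors made from the reads, with no scaling between libraries. The study's methods describe alignment by SeqMan NGen on GRCh37 followed by ArrayStar, whereas the submitters' processing notes name STAR, DESeq2 and hg38. The sources did not settle which applied, and coordinates here are GRCh37 from GENCODE, 1-based. The value 0.009 stood in for 0 and was set to 0, fractional values (6.14% of the others, with 5.58% of the reads) were rounded, and 53 rows with a repeated name were summed into the other row. In 28 rows the name had been turned into a date, and these stayed in the fits unnamed.

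DESeq2 (version 1.42.0, R 4.3.3) was fitted to the 6 libraries of a comparison, using its default size factors and two-sided Wald test. Genes passed independent filtering at 0.1, and p-values were adjusted by Benjamini-Hochberg over all genes tested. A gene was called at an adjusted p under 0.1, the study's tool and threshold. Fold changes are log2 values with standard errors (SE), and normalized counts are counts divided by size factors over all 9 libraries. The p-values measure the spread between libraries that the labels call biological replicates; nothing else states how the replicates were made. The fits were tested on simulated counts with few changed genes, as many raised as lowered. In these data a far larger share of genes was called, so that test does not cover such broad change. The 8 factors and the gene lists (other kidney factors, other liver factors, tubule genes, liver genes, antisense and neighboring transcripts, and markers) were chosen with earlier results of these data known, so their counts are descriptions beside the share of all genes called. From each list the text names up to 4 raised and 3 lowered called genes by fold change with a mean of at least 20 normalized counts, and the 3 genes nearest in fold change to each called factor. CDH1, CD68, EPCAM, ALB, PTPRC and PECAM1 are named as markers. LHX1-DT has no row. Promoter windows came from RefSeq, and those of FOXA2, LHX1 and HNF4G were not used here. Some listed genes that the rule would name are not reported here. Alternatives were TMM scaling in edgeR 4.0.16 (quasi-likelihood test) or in DESeq2, keeping genes that reached 10 counts in 3 libraries, switching off independent filtering, calling at 0.05 or with a 1.5-fold minimum, fitting the 9 libraries together, a replicate block, and leaving out each library.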

Additional observations from a re-analysis of the deposited data

How the results depend on the processing

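Over all alternatives run, each call of FOXA2, PAX2 and PAX8 under shBMAL1 kept its direction, with log2 fold changes of 0.62 to 0.75, 0.37 to 0.48 and −0.53 to −0.45, and was lost at most to the minimum of 1.5-fold. That minimum left 1 of the 8 factors called under shARNT, 2 under shBMAL1 and 1 in the direct comparison, 4 related factors called higher under shARNT and 3 tubule genes called higher under shARNT. Leaving out 1 library at a time gave 1 to 2 called factors under shARNT, 3 to 5 under shBMAL1 and 3 in the direct comparison. The count was 1 without shARNT replicate 3 and 3 without shBMAL1 replicate 3. Sign changes concerned only values that were not called, whose ranges over the left-out libraries were −0.03 to 0.04 for PAX8 and −0.06 to 0.05 for PAX2 under shARNT, −0.13 to 0.04 for HNF4G under shBMAL1, −0.01 to 0.14 for HNF4G in the direct comparison and −0.43 to 0.07 for FOXA1 in the direct comparison: PAX8 under shARNT was −0.00 with TMM size factors, −0.03 without shControl replicate 2 and −0.01 without shARNT replicate 3, and PAX2 under shARNT was 0.00 without shControl replicate 2 and 0.05 without shARNT replicate 1. HNF4G was 0.04 under shBMAL1 without shControl replicate 2, 0.01 without shBMAL1 replicate 3 and −0.01 in the direct comparison without shBMAL1 replicate 1, and FOXA1 was 0.07 in the direct comparison without shARNT replicate 1. The causes were not tested.

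Libraries with the same replicate number did not deviate together (correlations of deviations from −0.154 to 0.105, against −0.266 to 0.235 for different numbers). No pairing by number was thus seen, but 3 libraries per group are too few to exclude one. With a replicate block, 2, 4 and 3 of the 8 factors were called under shARNT, under shBMAL1 and in the direct comparison, and LHX1 under shBMAL1 had an adjusted p of 0.179. Depth limits HNF4A and FOXA3, which have an adjusted p only with independent filtering off and were then not called. The intervals of FOXA1 and LHX1, like those of the other factors, rest on 3 libraries per group.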

Other observations

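In the direct comparison of shBMAL1 with shARNT, the tubule and liver genes were mostly higher where called, while 17.3% of 18181 genes were called higher and 18.0% lower. Of the tubule genes, 31 were tested, with 18 called higher and 1, AGXT2, lower, and a median log2 fold change of 0.61. Of the liver genes, 25 were tested, with 15 called higher and 0 lower by DESeq2 and a median of 0.72. Both sets tested include genes that passed the filter through their high shBMAL1 level, so these counts are descriptions. At an unadjusted p under 0.05, 2 liver genes were lower, C3 and SERPINC1, the latter without an adjusted p, and the edgeR quasi-likelihood test called 2 lower. Among the other kidney factors, 5 were called higher, including GATA3 and POU3F3, factors of the distal nephron, and 2 lower, FOXC1 and WT1, which is 35% of 20 tested beside 35.3% of all genes. Against shControl neither GATA3 nor POU3F3 was called in a knockdown. GATA3 was at −0.34 under shARNT and 0.55 under shBMAL1, and POU3F3 at −0.68 and 0.30. Among the other liver factors, 6 of 16 tested were called higher and 4 lower, the latter being ATF5, CEBPB, CREB3L3 and RXRA. CREB3L3 was near the floor, at 2.01, 12 and 0 normalized counts in shControl, 14.6, 12.8 and 16.9 in shARNT, and 0 in every shBMAL1 library. Under shBMAL1 against shControl it was not called (DESeq2 adjusted p = 0.3995). ATF5, a stress-responsive leucine zipper factor, had 186.1, 174.9 and 237.6 normalized counts in shControl, 346.9, 321.1 and 330.0 in shARNT, and 154.9, 150.2 and 166.5 in shBMAL1. Its shARNT libraries lay above all others, and the shBMAL1 libraries lay below all others. The log2 fold change of ATF5 was 0.74 under shARNT (DESeq2 adjusted p = 8.81e-06) and −0.35 under shBMAL1 (adjusted p = 0.138, not called).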
